A study of Mus musculus with 12 samples.

Results

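The insulin-like growth factor (IGF) axis was followed here through 10 genes: the ligands Igf1 and Igf2, the receptors Igf1r and Igf2r, and the binding proteins Igfbp2, Igfbp3, Igfbp4, Igfbp5, Igfbp6 and Igfbp7. The genes were taken by symbol from the 29462 genes of the deposited expression table, and each stood on a single row. RNA came from primary smooth muscle cells of the mouse aorta, grown in medium with serum. The 6 WT libraries came from C57BL/6J mice and the 6 KO libraries from mice with a global knockout of CSE, cystathionine gamma-lyase, an enzyme that makes hydrogen sulfide and is encoded by Cth. Cells of both genotypes received angiotensin II, a vasoconstrictor peptide, at 1 uM for 24 h. The single comparison is therefore KO against WT under angiotensin II, and untreated cells were not analysed here. The labels used here give neither the age nor the sex of the mice. No label tells if replicates are different animals or dishes, and the p-values therefore reflect variation among these libraries only, part or all of which may be technical.

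IGF1 and IGF2 are small secreted proteins that bind IGF1R, a tyrosine kinase on the cell surface that signals through insulin receptor substrates to PI3K, AKT and mTORC1 and through adaptors to the MAP kinases. IGF2R, the cation-independent mannose 6-phosphate receptor, has no kinase and carries IGF2 to lysosomes, while the IGF-binding proteins hold the ligands outside the cell, prolong their life or keep them from the receptor, and are themselves cut by proteases. In vascular smooth muscle IGF1 is known as a survival and growth signal, and angiotensin II is known to act on the axis in these cells.

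Values are FPKM, fragments scaled by the length of the gene model and by the total of fragments mapped in its library, a level per length that is relative to the other RNA of a library. Mean levels carry the SD over 6 libraries, and log2 changes are KO minus WT on the scale of log2(FPKM + 1) with the standard error, which understates the change of genes with low levels. Adjusted p-values are from limma with Benjamini-Hochberg adjustment over the 11831 genes tested, those that reached 1 FPKM in 6 or more of the 12 libraries.

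Library totals lay between 255538 and 281432 FPKM, and the depth in reads is unknown. Cth was listed at 0 to 0.08 FPKM in WT and at 0 to 0.02 in KO, too low in both for a check of the genotype labels. Of 10 contractile smooth muscle markers, 3 (Acta2, Smtn and Cald1) reached 1 FPKM in all WT and all KO libraries. Myh11, the defining myosin, averaged 0.0133 FPKM in WT and 0.00833 in KO, Tagln 0.153 and 0.695, and Cnn1 0.00833 and 0.135. Cald1 was higher in KO without overlap (28.6 and 91.1 FPKM), while Acta2 and Smtn did not pass the test. The 10 genes summed to 151.23 to 181.46 FPKM in WT, 178.23 to 187.88 in KO replicates 1 to 4 and 240.12 to 264.24 in replicates 5 and 6. The summed fibroblast markers (8 genes) ranged from 830.68 to 880.22 FPKM in WT, from 1175.12 to 1272.77 in KO replicates 1 to 4 and from 504.27 to 722.04 in KO replicates 5 and 6, with most of the sum from Col1a1 and Col1a2. Of the 6 fibroblast markers tested, 3 were higher in all 6 KO libraries than in all WT libraries. Col3a1 averaged 0.593 FPKM in WT and 106.5 in KO, Dpt 0.0433 and 15.5, and Pdgfra 1.08 and 10.4. Col3a1 and Dpt reached the threshold for testing only through the KO libraries and so had to differ. Col1a2 was lower in KO without overlap (299 and 173 FPKM), and Col1a1 and Dcn did not pass the test. Dcn lay between 62.25 and 79.26 FPKM in WT and between 131.51 and 151.34 in KO replicates 1 to 4. In KO replicates 5 and 6 Dcn was at 26.69 and 22.08 FPKM. Lum and Pi16 were at most 0.09 FPKM in any library. The summed epithelial markers (7 genes) ranged from 139.97 to 148.23 FPKM in WT and from 40.31 to 59.75 in KO, with Cdh1 at 65.0 FPKM in WT and 0.86 in KO. Mesothelial markers (6 genes) summed to between 82.40 and 93.30 FPKM in WT and between 47.31 and 71.76 in KO, mostly Krt19 (78.5 and 50.1 FPKM), which is also an epithelial marker. Of the 5 tested, Krt19 and Msln were lower in KO, while Wt1 (0.117 and 1.51 FPKM), Upk3b (0.448 and 2.10) and Upk1b (3.23 and 4.90) were higher. Wt1 and Upk3b were tested only because of their KO levels and so had to differ. Leukocyte markers (7 genes) summed to between 39.13 and 47.04 FPKM in WT and between 41.19 and 57.20 in KO. None of 8 endothelial markers reached 1 FPKM in all libraries of a genotype. They summed to between 0.13 and 0.30 FPKM in WT and between 0.78 and 1.12 in KO. Xist lay between 0.01 and 0.04 FPKM in WT and between 0.31 and 3.53 in KO, while 4 Y-linked genes summed to between 26.91 and 30.77 FPKM in WT and between 10.61 and 17.91 in KO. Epithelial, mesothelial and endothelial sums and the sex-linked levels did not overlap between the genotypes, with the endothelial sums very low in both. The summed fibroblast level followed the split of the KO libraries. Leukocyte sums overlapped, although Csf1r, Cd68 and Lyz2 did not. The part of these levels in the results below was not tested. KO replicates 5 and 6 stood apart from the other 4 KO libraries: 57.1% of the tested genes had both libraries outside the range of KO replicates 1 to 4, as had 6 of the 9 tested IGF genes. For the IGF genes, values with KO replicates 1 to 4 alone are therefore also given where a call, a direction or a fold depended on the split. WT replicates 5 and 6 also lay outside the range of WT replicates 1 to 4 in some IGF genes. These were Igf2 (11.11 and 11.61 FPKM), Igf1 (0.43 and 0.36), Igfbp3 (83.71 and 69.60) and Igfbp4 (22.13 and 21.52). The other tested IGF genes did not show this, and the share over all tested genes was not computed for WT.

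Igfbp3, Igfbp4 and Igfbp7 together held 97.5% to 99.2% of the summed RNA of the 6 binding proteins in every library, and their promoter sequences are shown because the composition results below turn on these genes. Each sequence is the 250 bases before the RefSeq transcription start in GRCm38.p6, 5′ to 3′ on the strand of the gene, with matches to a searched motif in capitals. The windows are chr11:7213924-7214173 (minus strand) for Igfbp3, chr11:99040994-99041243 (plus strand) for Igfbp4 and chr5:77408046-77408295 (minus strand) for Igfbp7.
Igfbp3: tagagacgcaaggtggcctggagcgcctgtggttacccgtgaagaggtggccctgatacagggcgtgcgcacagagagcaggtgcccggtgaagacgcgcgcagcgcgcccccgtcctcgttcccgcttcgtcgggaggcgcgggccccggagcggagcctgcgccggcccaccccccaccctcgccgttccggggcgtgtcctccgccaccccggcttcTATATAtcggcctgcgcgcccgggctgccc
Igfbp4: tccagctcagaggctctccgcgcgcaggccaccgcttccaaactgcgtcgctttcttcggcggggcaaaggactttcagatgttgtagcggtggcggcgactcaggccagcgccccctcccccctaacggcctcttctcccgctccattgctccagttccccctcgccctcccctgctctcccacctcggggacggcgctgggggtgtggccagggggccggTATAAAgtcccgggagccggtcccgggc
Igfbp7: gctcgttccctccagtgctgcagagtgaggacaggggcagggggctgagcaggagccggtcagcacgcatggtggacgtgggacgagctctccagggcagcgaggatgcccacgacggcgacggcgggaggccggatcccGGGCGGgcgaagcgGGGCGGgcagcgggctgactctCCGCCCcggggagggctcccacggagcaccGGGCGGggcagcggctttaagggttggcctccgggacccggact

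All 3 windows were rich in G and C, at 73.2% for Igfbp3, 69.2% for Igfbp4 and 74.0% for Igfbp7, against a median of 52.4% over 32851 RefSeq windows of the same length. They held 32, 22 and 26 CpG dinucleotides in the same order, against a median of 6. TATATA, a form of the TATA box, began at position -30 from the start in Igfbp3, and TATAAA, the other form searched, began at -28 in Igfbp4. The Igfbp7 window held neither form and had 4 matches to the GC box GGGCGG, the motif of SP1 (1 of them on the other strand, read as CCGCCC). Over all windows and both strands, TATATA was found in 5.25%, TATAAA in 12.4% and GGGCGG in 32.7%. No match to TGACTCA (AP-1), CACGTG (E-box), GGAATG (TEAD), GTAAACA (forkhead) or GACGTC (CRE) lay in these 3 windows, which says only that these letters are not there. No printed match overlapped another.

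Of the 10 genes, 9 were tested; 4 were higher in KO (Igf2, Igf1, Igfbp4 and Igfbp6), 3 were lower (Igfbp3, Igf2r and Igf1r), 2 did not pass the test (Igfbp7 and Igfbp2), and Igfbp5 was too low for it. Changes were common in these libraries: 63.5% of all tested genes were called, 32.6% as higher and 30.9% as lower in KO, so the number of IGF genes called does not set the axis apart. Igf1 and Igfbp6 reached the threshold for testing only through the KO libraries and so had to differ. The KO and WT values of 6 genes did not overlap, compared with 46.4% of all tested genes. Fewer cells of a type and less RNA per cell cannot be told apart in bulk samples, here or in any result below.

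**Figure D1:**
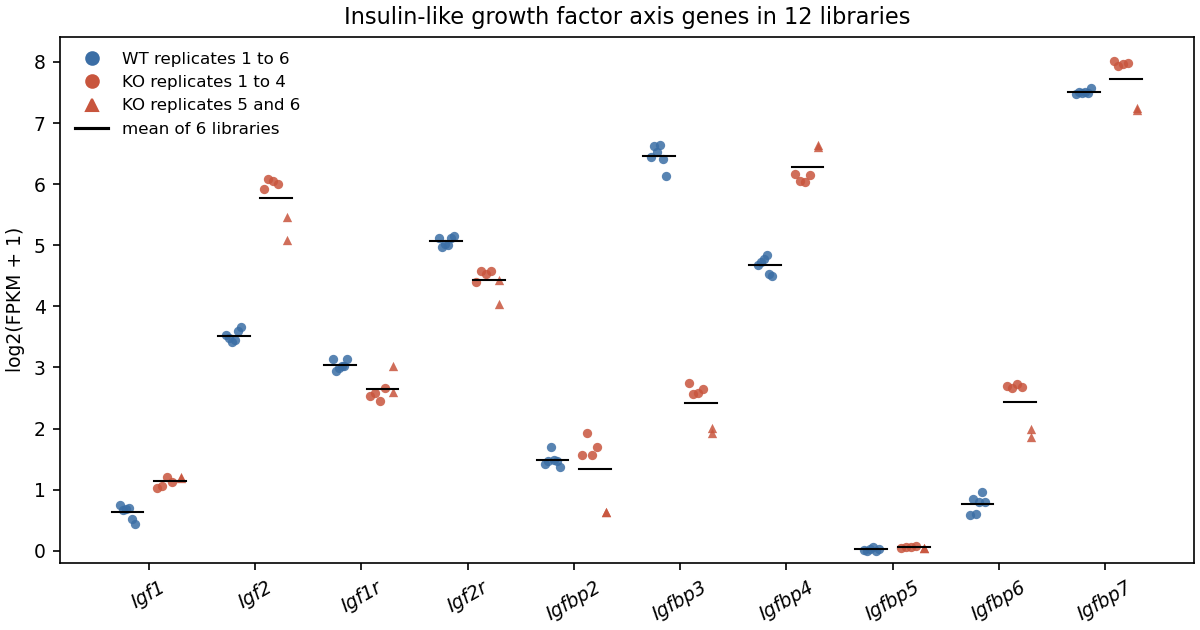
Level of each of the 10 IGF axis genes in every library, as log2(FPKM + 1), with WT libraries and KO replicates 1 to 4 as circles, KO replicates 5 and 6 as triangles and the mean of 6 libraries as a line. Igfbp3 lies far lower in all KO libraries (2.82 to 5.69 FPKM) than in all WT libraries (69.60 to 98.97), whereas the Igfbp2 values of the genotypes overlap.

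Igf2 was the main ligand RNA in both genotypes and rose strongly in KO. Igf2, the fetal growth ligand expressed from the paternal allele in most tissues (chromosome 7, 142650766 to 142666816, minus strand, ENSMUSG00000048583), measured 10.55, 10.19, 9.68, 9.92, 11.11 and 11.61 FPKM in WT replicates 1 to 6. In KO replicates 1 to 6 it measured 59.84, 66.71, 65.43, 62.83, 32.97 and 43.02 FPKM. Every KO library was above every WT library, with KO replicates 5 and 6 the lowest of the KO group. The mean went from 10.5 ± 0.736 to 55.1 ± 13.9 FPKM, 5.25-fold higher in KO, with a log2 change of 2.25 ± 0.15 (limma adjusted p = 3.2e-08). The fold was 6.06 with KO replicates 1 to 4 and 3.62 with replicates 5 and 6.

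Igf1, the ligand that acts on smooth muscle both from the blood and locally (chromosome 10, 87858265 to 87937042, plus strand, ENSMUSG00000020053), was close to the lower limit of the tested genes. It measured 0.68, 0.58, 0.61, 0.63, 0.43 and 0.36 FPKM in WT replicates 1 to 6 and 1.04, 1.09, 1.32, 1.18, 1.29 and 1.3 in KO replicates 1 to 6. The groups did not overlap, and KO replicates 5 and 6 lay within the range of the other KO libraries. Its mean was 0.548 ± 0.125 FPKM in WT and 1.20 ± 0.119 in KO, a ratio of 2.19 and a log2 change of 0.51 ± 0.06 (limma adjusted p = 1.3e-05). At so low a level the log2 change depended on the scale, and Igf1 stood at 1.03 with a pseudocount of 0.1 and at 0.87 after rescaling to TPM, called in both. Igf2 made up 95.0% ± 1.32 of the summed ligand RNA in WT and 97.7% ± 0.859 in KO, and the sum went from 11.1 ± 0.636 to 56.3 ± 13.8 FPKM.

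Both receptors were lower in KO. Igf2r, which clears IGF2 (chromosome 17, 12682406 to 12769664, minus strand, ENSMUSG00000023830), measured 33.74, 30.38, 31.59, 30.96, 33.58 and 34.51 FPKM in WT replicates 1 to 6. The KO values were 20.17, 22.90, 22.20, 22.85, 15.44 and 20.48 FPKM for replicates 1 to 6. No KO library reached the lowest WT library, and KO replicate 5 was the lowest of all. The mean fell from 32.5 ± 1.70 to 20.7 ± 2.82 FPKM, 1.57-fold lower, with a log2 change of -0.64 ± 0.09 (limma adjusted p = 2.4e-05).

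Igf1r, the signalling receptor (chromosome 7, 67952827 to 68233668, plus strand, ENSMUSG00000005533), measured 7.84, 6.72, 6.99, 7.17, 7.15 and 7.76 FPKM in WT replicates 1 to 6. In KO replicates 1 to 6 it measured 4.78, 5.00, 4.49, 5.36, 5.06 and 7.10 FPKM. KO replicate 6 alone lay within the WT range, and the other 5 KO libraries were below it. The mean fell from 7.27 ± 0.441 to 5.30 ± 0.929 FPKM, 1.37-fold lower, with a log2 change of -0.40 ± 0.09 (limma adjusted p = 9.7e-04). With KO replicates 1 to 4 alone the change was -0.49, and the groups did not overlap.

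Igfbp3 fell more than any other of the 10 genes. It encodes the main IGF carrier of the blood (chromosome 11, 7206086 to 7213923, minus strand, ENSMUSG00000020427) and measured 86.18, 97.64, 91.62, 98.97, 83.71 and 69.60 FPKM in WT replicates 1 to 6. The KO values were 5.69, 4.95, 5.01, 5.27, 3.04 and 2.82 FPKM for replicates 1 to 6. The lowest WT library was far above the highest KO library, and KO replicates 5 and 6 were the lowest of all. The mean fell from 88.0 ± 10.8 to 4.46 ± 1.22 FPKM, 19.7-fold lower, with a log2 change of -4.05 ± 0.15 (limma adjusted p = 5.4e-11). The level was 16.8-fold lower with KO replicates 1 to 4 and 30.0-fold lower with replicates 5 and 6.

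Igfbp4 rose while Igfbp3 fell. Igfbp4, an inhibitor of IGF action that the protease PAPP-A cuts (chromosome 11, 99041244 to 99054392, plus strand, ENSMUSG00000017493), measured 24.46, 25.61, 26.35, 27.50, 22.13 and 21.52 FPKM in WT replicates 1 to 6. It measured 70.67, 65.36, 64.23, 69.85, 98.53 and 96.97 FPKM in KO replicates 1 to 6. All KO libraries were above all WT libraries, and here KO replicates 5 and 6 were the highest. The mean rose from 24.6 ± 2.37 to 77.6 ± 15.8 FPKM, 3.16-fold, with a log2 change of 1.60 ± 0.12 (limma adjusted p = 6.2e-08). The fold was 2.75 with KO replicates 1 to 4 and 3.97 with replicates 5 and 6.

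Igfbp6, which binds IGF2 in preference to IGF1 (chromosome 15, 102144362 to 102149511, plus strand, ENSMUSG00000023046), was a low-level gene in both genotypes. It measured 0.50, 0.80, 0.51, 0.73, 0.95 and 0.73 FPKM in WT replicates 1 to 6 and 5.45, 5.33, 5.62, 5.40, 2.62 and 3.00 in KO replicates 1 to 6. All KO values exceeded all WT values, with KO replicates 5 and 6 between the WT libraries and the other 4 KO libraries. The mean rose from 0.703 ± 0.173 to 4.57 ± 1.37 FPKM, 6.5-fold, with a log2 change of 1.67 ± 0.16 (limma adjusted p = 7.1e-07). With a pseudocount of 0.01 the log2 change of Igfbp6 was 2.65. This fold was 7.75 with KO replicates 1 to 4 and 4.0 with replicates 5 and 6.

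Igfbp7, a secreted protein that binds IGFs weakly and is abundant in the matrix of vessels (chromosome 5, 77349240 to 77408041, minus strand, ENSMUSG00000036256), had the highest level of the 10 genes in both genotypes. WT replicates 1 to 6 measured 176.86, 181.23, 179.31, 181.62, 179.02 and 189.75 FPKM. KO replicates 1 to 6 measured 257.24, 244.63, 248.06, 250.90, 151.26 and 148.15 FPKM. KO replicates 1 to 4 were above all WT libraries, and KO replicates 5 and 6 were below all of them. Over all 12 libraries the log2 change was 0.22 ± 0.14 (95% interval -0.09 to 0.52, limma adjusted p = 0.20), and Igfbp7 did not pass the test. With KO replicates 1 to 4 alone it was 0.46 ± 0.03 (limma adjusted p = 5.5e-09), in a fit that called 77.1% of all genes. It also passed the test without KO replicate 5 (0.31, limma adjusted p = 0.041) and without KO replicate 6 (0.32, limma adjusted p = 0.032).

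Igfbp2, a binding protein that can also bind integrins (chromosome 1, 72824503 to 72852474, plus strand, ENSMUSG00000039323), followed the same split among the KO libraries at a far lower level. It measured 1.67, 1.77, 2.25, 1.80, 1.77 and 1.57 FPKM in WT replicates 1 to 6 and 1.96, 2.79, 1.95, 2.24, 0.55 and 0.55 in KO replicates 1 to 6. KO replicates 1 to 4 overlapped the WT libraries, and KO replicates 5 and 6 were below every other library. The log2 change was -0.15 ± 0.21 (95% interval -0.60 to 0.30, limma adjusted p = 0.55) with all libraries. Without KO replicate 5, or without KO replicate 6, it was -0.01. Its sign turned to 0.20 ± 0.08 with KO replicates 1 to 4 alone, which passed the test (limma adjusted p = 0.038).

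Igfbp5, a matrix-bound binding protein (chromosome 1, 72857932 to 72874884, minus strand, ENSMUSG00000026185), was near 0 in all libraries. It was listed at 0.01, 0, 0.02, 0.04, 0 and 0.02 FPKM in WT replicates 1 to 6. The KO libraries were listed at 0.03, 0.04, 0.04, 0.06, 0.03 and 0.03 FPKM, in the same order. The ranges overlapped, and the difference of 0.03 on the log2 scale had a two-sided p of 0.013 in an exact permutation test over 924 assignments, where the smallest possible p is 0.00216. Igfbp5 and Igfbp2 are neighbours, 5457 bases apart on opposite strands of chromosome 1, and neither was above 3 FPKM in any library.

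**Figure D2:**
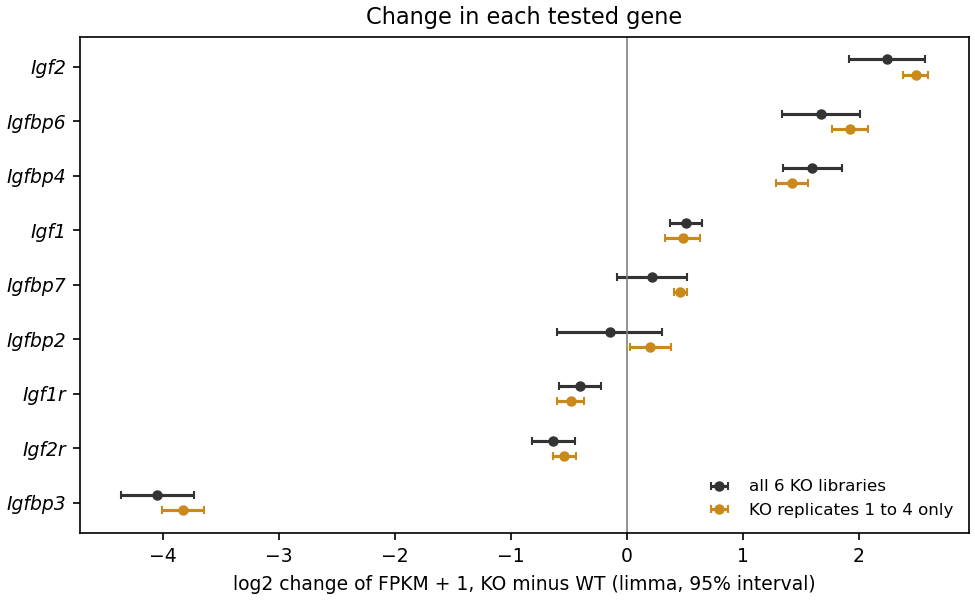
Log2 change of the 9 tested IGF axis genes, KO minus WT, on the log2(FPKM + 1) scale with 95% intervals from limma, with all 6 KO libraries and with KO replicates 1 to 4 only. Igfbp2 changes sign and Igfbp7 passes the test when KO replicates 5 and 6 are left out, whereas the other 7 genes keep their direction.

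The order of the levels changed between the genotypes. In WT it ran from Igfbp7 through Igfbp3, Igf2r, Igfbp4, Igf2, Igf1r, Igfbp2, Igfbp6 and Igf1 to Igfbp5, and of 9 neighbouring pairs only Igfbp6 and Igf1 had overlapping ranges. In KO it ran from Igfbp7 through Igfbp4, Igf2, Igf2r, Igf1r, Igfbp6, Igfbp3, Igfbp2 and Igf1 to Igfbp5. There 4 of 9 neighbouring pairs overlapped: Igfbp4 with Igf2, Igf1r with Igfbp6, Igfbp6 with Igfbp3, and Igfbp2 with Igf1. Igfbp3 went from above 96.6% of the tested genes in WT to above 36.7% in KO. Igf2 went the other way, from above 65.3% to above 93.6%.

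The makeup of the summed RNA of the 6 binding proteins differed between the genotypes. The sum was 296 ± 11.2 FPKM in WT (283.19 to 310.66) and 305 ± 40.3 in KO. No KO library lay within the WT range: KO replicates 1 to 4 were above it (323.1 to 341.04), and KO replicates 5 (256.03) and 6 (251.52) were below it. Igfbp3 made up 29.6% ± 2.69 of the sum in WT and 1.44% ± 0.226 in KO. Igfbp4 made up 8.29% ± 0.532 in WT, between 19.8% and 20.9% in KO replicates 1 to 4, 38.5% in KO replicate 5 and 38.6% in KO replicate 6. The share of Igfbp7 was 61.3% ± 3.13 in WT, between 75.2% and 76.3% in KO replicates 1 to 4, 59.1% in KO replicate 5 and 58.9% in KO replicate 6. Without Igfbp7, which binds IGFs weakly, the sum was 115 ± 13.1 FPKM in WT (93.44 to 129.04) and 88.3 ± 12.5 in KO. KO replicates 1 to 4 lay below the WT range (76.85 to 83.8), and KO replicates 5 (104.77) and 6 (103.37) lay within it. These sums follow from the levels given above, and no test was made of them.

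**Figure D3:**
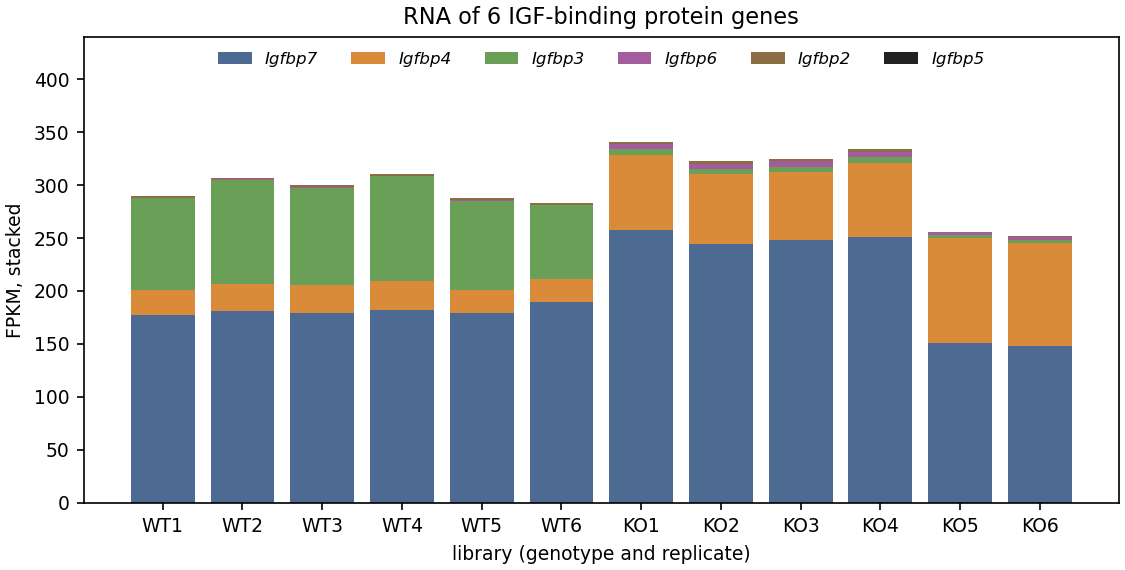
Summed level of the 6 IGF-binding proteins in each library, in FPKM, as bars split by gene. In WT, Igfbp3 makes up 29.6% of the sum on average, and in KO 1.44%, while the total is above all WT libraries in KO replicates 1 to 4 and below them in KO replicates 5 and 6.

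Ratios within a library do not depend on its total. Igf2 over Igf2r was 0.324 ± 0.0125 in WT (0.306 to 0.336) and 2.64 ± 0.408 in KO (2.10 to 2.97), and all KO ratios exceeded all WT ratios. For Igf2 over Igf1r the ratio was 1.45 ± 0.0858 in WT and 10.8 ± 3.61 in KO (6.06 to 14.6). Igf2r over Igf1r was 4.47 ± 0.147 in WT (4.30 to 4.70) and 3.99 ± 0.835 in KO. It lay between 4.22 and 4.94 in KO replicates 1 to 4, overlapping WT, and at 3.05 and 2.88 in KO replicates 5 and 6, below every WT library. Binding protein RNA over ligand RNA was 26.9 ± 2.44 in WT (23.7 to 29.4) and 5.60 ± 0.99 in KO (4.77 to 7.47). The KO library with the highest of these ratios was still far below the WT library with the lowest. RNA levels do not give the amounts of secreted protein, and serum in the medium also holds IGFs and their binding proteins.

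**Figure D4:**
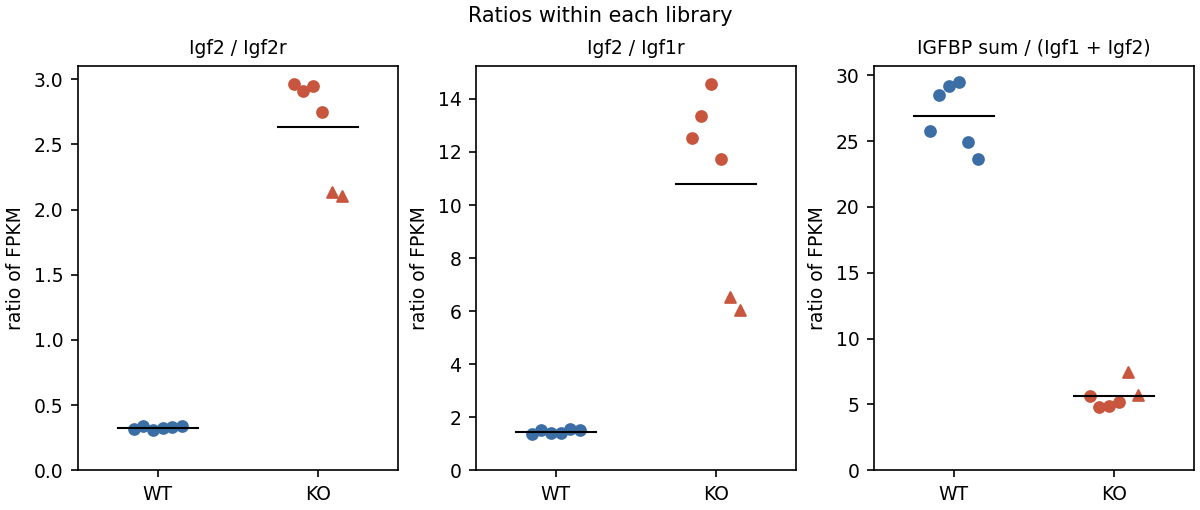
Ratios of FPKM within each library for Igf2 over Igf2r, Igf2 over Igf1r and the summed binding proteins over the summed ligands, on axes that start at 0, with libraries as points (KO replicates 5 and 6 as triangles) and the mean of 6 as a line. Igf2 over Igf2r is at most 0.336 in all WT libraries and at least 2.10 in all KO libraries.

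The authors' deposited table, which gives ratios of WT over KO, marks 5 of the 10 genes as significant (Igf1, Igf2, Igfbp3, Igfbp4 and Igfbp6). It marks 15.0% of all 29462 genes in it, of which only 11831 reached the level for testing here. As 9 of the 10 IGF genes reached that level, the 2 shares have unlike bases and cannot be compared directly. In the authors' deposited table the log2 ratio of WT over KO was 4.30 for Igfbp3, -2.39 for Igf2, -1.66 for Igfbp4 and -2.70 for Igfbp6. Igf2r and Igf1r, with log2 ratios of 0.65 and 0.46 in the authors' deposited table, are not marked there. Their q-values are listed as 0.0, the same as for the 5 marked genes, whereas Igfbp7, also not marked, has a q-value of 0.20.

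Genes around the 10 were taken from 9 lists of pathway genes, 141 genes in all, of which 114 were tested. Of these, 43 were higher and 43 lower in KO, 75.4% of the tested list genes against 63.5% of all tested genes. Their median log2 change was -0.07, beside 0.01 over all tested genes. Of the 114, 3 (Ccn3, Grb10 and Pik3r3) reached the threshold for testing only through KO libraries and 1 (H19) only through WT libraries; these had to differ, yet are included in the counts. The list counts below describe direction and size, and no list was tested as a set.

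Other proteins that bind IGFs or insulin included 1 higher and 2 lower genes among the 3 tested of 10 listed (median log2 change -0.58). Kazald1, an IGF-binding-protein-related protein of the matrix, fell from 40.3 ± 1.68 to 5.87 ± 1.42 FPKM, 6.87-fold lower (limma adjusted p = 7.9e-10). Insr, the insulin receptor, which also pairs with IGF1R in hybrid receptors, fell 1.63-fold, from 5.50 ± 0.294 to 3.37 ± 0.549 FPKM (limma adjusted p = 2.9e-05). Crim1, a membrane protein with an IGF-binding-protein-like domain, rose 1.25-fold (limma adjusted p = 1.4e-04), with a log2 change of 0.31 that became 0.17 after quantile normalization.

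Among 14 tested proteases and inhibitors that act on IGF-binding proteins, 9 were higher and 3 lower in KO, with a median log2 change of 0.68. Mmp3, a metalloprotease that cuts several IGF-binding proteins, rose 24.7-fold, from 26.3 ± 2.58 to 649 ± 346 FPKM (limma adjusted p = 6.1e-07). Its KO values split as those of Igfbp7 did, at 832.81 to 917.5 FPKM in replicates 1 to 4, 228.53 in replicate 5 and 178.87 in replicate 6, yet all were above WT. Timp1, an inhibitor of metalloproteases, rose 5.12-fold (limma adjusted p = 1.5e-11). Pappa, which encodes PAPP-A, was listed at 0.0 FPKM in every library, and Pappa2 at no more than 0.19. The 3 lower genes were Stc2, an inhibitor of PAPP-A (2.73-fold lower, limma adjusted p = 5.7e-04; 2.03-fold with KO replicates 1 to 4 and 8.57-fold with 5 and 6), and the metalloproteases Adam12 (2.44-fold, 2.1e-05; 2.05-fold and 3.96-fold) and Adam9 (1.48-fold, 1.6e-04).

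The CCN family, matrix-associated proteins with an IGF-binding-protein-like domain, had 5 of 5 tested genes higher in KO (median log2 change 1.40). Ccn1 rose 2.98-fold (limma adjusted p = 2.9e-06) and Ccn2 2.87-fold (3.0e-06). Ccn3 measured 0.0833 ± 0.0513 FPKM in WT and 21.4 ± 11.4 in KO, with KO replicates 5 and 6 at 7.43 and 6.5, and was tested only because of its KO level.

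The list of the Igf2 and Igf2r loci and of RNA-binding regulators of Igf2 had 1 higher and 4 lower genes among 6 tested (median log2 change -0.34). H19, the maternally expressed noncoding RNA that lies 72.6 kb from Igf2 and shares enhancers with it, was lower in KO while Igf2 was higher. H19 measured 5.17, 4.60, 5.55, 4.22, 4.58 and 6.41 FPKM in WT replicates 1 to 6 and 0.16, 0.11, 0.07, 0.05, 0.04 and 0 in KO replicates 1 to 6. The groups lay far apart, KO replicate 6 was listed at 0, and H19 reached the threshold for testing only through the WT libraries. Igf2bp3, which binds Igf2 mRNA, rose 3.89-fold (1.23 ± 0.105 to 4.79 ± 0.237 FPKM, limma adjusted p = 5.8e-11). Igf2bp2, its relative, fell 1.76-fold (limma adjusted p = 1.8e-07), and Zfp57, a keeper of imprints, fell 1.36-fold (0.0012) with overlapping ranges.

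Antisense RNAs at these imprinted loci were below the threshold for testing and are named after their values were seen. Igf2os, antisense to Igf2, averaged 0.0783 ± 0.0232 FPKM over WT libraries and 0.318 ± 0.0902 over KO libraries, with no overlap (two-sided exact permutation p = 0.00216). Airn, which overlaps Igf2r on the other strand by 28354 bases, lay between 1.15 and 1.62 FPKM in KO replicates 1 to 4, at 0.07 in KO replicate 5 and at 0.66 in KO replicate 6. It averaged 0.547 FPKM in WT and 1.06 in KO (two-sided exact permutation p = 0.12). Strand was marked in the libraries, but the sources used here do not give whether counting used it, and reads of Igf2 and Igf2os, and of Igf2r and Airn, may not be separated.

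Receptor substrates, adaptors and phosphatases had 6 higher and 11 lower genes among 21 tested (median log2 change -0.25). Grb10, an adaptor that inhibits IGF1R and insulin receptor signalling and is imprinted, was listed at 0.005 ± 0.00837 FPKM in WT and at 8.35 ± 1.17 in KO, and reached the threshold for testing only through KO. Mdm2, a ligase that also acts on IGF1R, rose 2.54-fold (limma adjusted p = 1.7e-09), and the phosphatase Ptpn11 rose 1.40-fold (1.7e-06). Irs2, a docking protein of both receptors, fell 2.68-fold, from 12.1 ± 0.387 to 4.53 ± 1.14 FPKM (limma adjusted p = 2.1e-07). Arrb2, an arrestin, fell 2.52-fold (limma adjusted p = 6.1e-06), and Cav1, the coat protein of caveolae, fell 2.40-fold (2.3e-07).

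The PI3K, AKT and mTORC1 chain showed no common direction, with 13 higher, 8 lower and 11 not called of 32 tested (median log2 change 0.10). After quantile normalization the counts were 12 higher and 12 lower. Pik3r3, a regulatory subunit of PI3K, measured 0.405 ± 0.0644 FPKM in WT and 5.82 ± 0.874 in KO, and like Grb10 entered the test only through KO. Rictor, a subunit of mTORC2, rose 1.95-fold (limma adjusted p = 2.0e-06). The kinases Pdpk1 and Gsk3b and the AKT phosphatase Phlpp1 fell 2.03-fold, 2.01-fold and 2.05-fold (limma adjusted p of 3.5e-07, 1.6e-07 and 4.0e-06).

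FOXO target genes, which AKT signalling is known to hold down, had 1 higher and 11 lower genes among 16 tested, with a median log2 change of -0.61. Irs2, given above, is also on this list, as is Insr, so the lists are not independent. Cdkn1b, an inhibitor of the cell cycle, fell 2.09-fold, from a mean of 29.1 to 13.9 FPKM (limma adjusted p = 3.0e-07), and Pik3ip1, an inhibitor of PI3K, fell 1.93-fold (0.015; 1.41-fold with KO replicates 1 to 4 and 7.24-fold with 5 and 6). The higher gene, Gadd45a, was at 10.61 to 11.48 FPKM in KO replicates 1 to 4 but at 4.18 in replicate 5 and 3.63 in replicate 6, against a WT mean of 4.39 (limma adjusted p = 0.019). With KO replicates 1 to 4 alone 3 FOXO targets were higher and 11 lower, and the median was -0.34.

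Partners of IGF1R and receptors of IGF-binding proteins had 5 higher and 4 lower genes among 12 tested (median log2 change -0.06), and 4 higher and 6 lower after quantile normalization. Thbs1, a matrix protein that binds CD47, rose 2.49-fold (limma adjusted p = 1.9e-05), the integrin subunit Itga5 rose 2.29-fold (6.1e-09) and Lrp1, a receptor for IGFBP3, rose 1.41-fold (0.0070) with overlapping ranges. Fn1, fibronectin, fell 3.03-fold, from a mean of 1113 to 367 FPKM (limma adjusted p = 5.3e-07). Cd47 fell 1.99-fold (limma adjusted p = 4.0e-06) and Itgb3, the integrin subunit of the alpha-v beta-3 receptor that works with IGF1R in smooth muscle, fell 1.91-fold (7.4e-06).

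Of 7 tested genes of growth hormone and STAT5 signalling, the known input to Igf1, 2 were higher and 2 lower. The kinase Jak2 rose 4.52-fold, from a mean of 13.6 to 61.3 FPKM (limma adjusted p = 2.4e-08), and Socs3, a feedback inhibitor of it, rose 1.81-fold (0.0011; 2.14-fold with KO replicates 1 to 4 and 1.16-fold with 5 and 6). Stat5a fell 2.04-fold (limma adjusted p = 5.7e-05; 1.73-fold with KO replicates 1 to 4 and 3.15-fold with 5 and 6) and Stat5b fell 1.72-fold (6.1e-07).

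**Figure D5:**
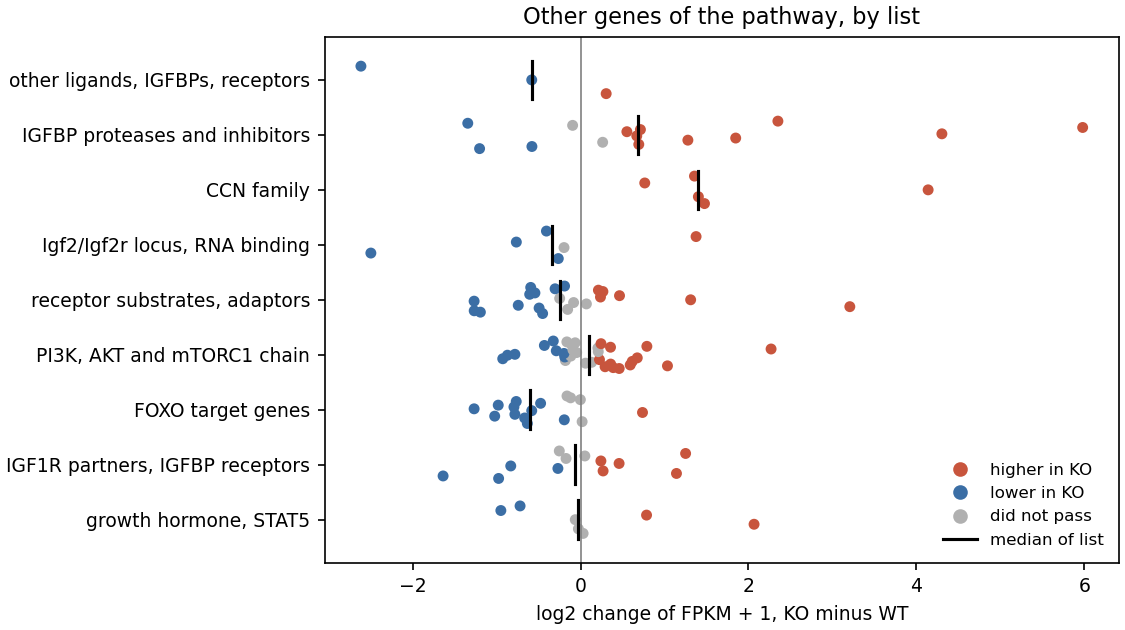
Log2 change of each tested gene of 9 pathway lists, KO minus WT on the log2(FPKM + 1) scale, as points coloured by call, with the median of each list as a line. All 5 tested CCN genes lie above 0, whereas the FOXO target genes have a median of -0.61.

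Patterns most like those of Igfbp7 and Igfbp3 were described by Pearson's r of log2(FPKM + 1) over the 12 libraries, which fall into WT, KO replicates 1 to 4, and KO replicates 5 and 6. Closest to Igfbp7 were Pdlim4 (r = 0.990), Mt2 (0.989) and Cxcl1 (0.987). Mt2, a metallothionein, lay between 127.13 and 147.36 FPKM in WT, between 354.35 and 407.34 in the first 4 KO replicates, and at 95.33 and 84.01 in the last pair. Closest to Igfbp3 were Aqp1, a water channel (r = 0.999), Gldc, an enzyme of glycine breakdown (0.998), and Hr, a nuclear corepressor (0.998). Aqp1 lay between 49.91 and 74.93 FPKM in WT and between 0.20 and 1.86 in KO, and was lowest, like Igfbp3, in KO replicates 5 and 6.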

How the data were processed

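The 6 WT and 6 KO RNA-seq libraries were grouped by the genotype in their labels. Per the labels' protocols, polyadenylated RNA was sequenced as paired ends after strand marking with dUTP. Tools named in the submitters' processing notes, without a role, are HISAT2 2.0.4, cutadapt 1.9 and StringTie 1.3.4d, beside edgeR and DESeq2, and the build named is mm9. The authors deposited FPKM to 2 decimals. The authors' deposited table also holds their ratio of mean FPKM, the log2 of that ratio, and p-value and q-value columns; the sources used here do not give the test. Depth in reads is unknown, so no count test was run. Near-identical or overlapping genes can share reads.

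Per symbol, the row of highest mean was taken (56 symbols stood on several rows). Gene IDs were matched to GENCODE M21 (GRCm38; 29384 of 29462 matched), the source of all gene positions. limma 3.58.1 in R 4.3.3 compared log2(FPKM + 1) with a trend of variance on level, no covariate and Benjamini-Hochberg adjustment, two-sided at 0.05, and was tested on simulated data. Genes below 1 FPKM in more than 6 libraries were compared by an exact permutation test. A total of 20 alternatives covered pseudocounts of 0.1 and 0.01, filters (none, or 5 FPKM), quantile and TPM scaling, the replicate number as a block, KO replicates 1 to 4 only, and each library left out.

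The IGF genes and the lists were chosen with earlier results of these data known. Named besides the 10 are Cth, up to 3 called genes per list and direction with the largest log2 change, and the 3 genes most correlated with the member of highest level and with that of largest change. The other genes given were chosen after their values were seen. A few genes named by this rule are not reported here. Promoters are RefSeq windows (GRCm38.p6), found for 10 of 10 genes, and 8 motifs, chosen after seeing the data, were searched on both strands.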

Additional observations from a re-analysis of the deposited data

Results flagged for a closer look

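In 5 of the 20 groups of 6 libraries looked at, 1 library lay far from the other 5 by Dixon's 95% criterion, which compares its gap to the nearest library with the whole range, and chance gives about 1 such group in 20. Igf1r in KO replicate 6 was at 7.10 FPKM, with the other KO libraries at 4.49 to 5.36. Igf2r in KO replicate 5 was at 15.44 FPKM, with the others at 20.17 to 22.90. Igfbp2 in WT replicate 3 was at 2.25 FPKM (others 1.57 to 1.80). Igfbp7 in WT replicate 6 was at 189.75 FPKM (others 176.86 to 181.62). Igfbp5 in KO replicate 4 was at 0.06 FPKM (others 0.03 to 0.04), a difference near the resolution of the deposited values.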

How the results depend on the processing

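Of the IGF genes, 7 were called with the same direction in each alternative in which they could be tested. Igfbp2 turned to 0.20 with KO replicates 1 to 4 only, and Igfbp7 passed the test in that setting (0.46), without KO replicate 5 (0.31) and without KO replicate 6 (0.32). All 9 tested IGF genes were called with KO replicates 1 to 4 only, and 7 to 8 when 1 library was left out. With no filter on low values Igfbp5 was also called (8 of 10). Over all genes 7515 were called, 7121 to 8105 with 1 library left out and 4775 of 7244 tested with at least 5 FPKM, where fewer genes are tested by construction. The log2 change of Igf1 ranged from 0.39 to 1.15 and that of Igfbp6 from 1.61 to 2.65 over 19 alternatives, with the highest values at a pseudocount of 0.01 and the lowest after quantile normalization. With the replicate number as a block, 6959 genes, 7 IGF genes and 85 list genes (86 without it) were called. Libraries with the same number correlated at -0.06 to -0.27 after group means were removed, and none correlated best with its own number. No pairing by number was seen, but this check looks only for shared deviations. It cannot decide the question, because the split of the KO libraries enters the same deviations. No scaling moved the median change of all genes by more than 0.1. Low genes such as Igf1, Igfbp5 and Igfbp6 rest on FPKM of unknown read depth, and KO replicates 5 and 6 cannot be assigned to a labelled batch.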
